A study of Mus musculus with 4 samples.

Results

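Of 23162 features with a count in these limb libraries, 10 genes of glycolysis are described here: Hk1, Hk2, Aldoa, Tpi1, Pgk1, Pgam2, Eno1, Eno3, Pkm and Ldha. They were chosen by name, and each one's counts were summed over every tag that the authors' table gives to its Ensembl gene. All 10 had counts in every library and passed the filter on low counts. The 7 general enzymes, found in most cells, are Hk1, Aldoa, Tpi1, Pgk1, Eno1, Pkm and Ldha. The 3 muscle enzymes are Hk2, the hexokinase of skeletal muscle, heart and fat, Pgam2 and Eno3. The libraries came from forelimbs and hindlimbs dissected from CD1 mouse embryos at E14.5, with 2 biological replicates of each limb type and 4 libraries in all. CD1 is an outbred stock, and the labels name no allele, transgene or treatment in either group. Whether a replicate held limbs of 1 or several embryos, and whether the limb pairs of a replicate number shared embryos, is not given in the sources used here, so the p-values measure the spread between these libraries only.

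Glycolysis turns glucose into pyruvate in the cytosol and yields ATP without oxygen. Hexokinase traps glucose as glucose 6-phosphate, aldolase splits the phosphorylated hexose, and the enzymes below aldolase recover ATP, while lactate dehydrogenase turns pyruvate into lactate and restores NAD+. Several steps have a general isozyme and another that replaces it in differentiating muscle fibres. Growing embryonic tissues, and cartilage, which has no blood vessels, rely heavily on the pathway.

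In digital gene expression by SAGE, cDNA is cut by NlaIII at its CATG sites and the 17 bases that follow a site are counted as a tag. A transcript gives 1 tag when its last site before the poly(A) tail is cut, so a tag count does not grow with transcript length. A gene can show several tags when an upstream site is kept, when the transcript ends earlier or when it is spliced differently. Library totals ran from 1829647 to 5325279 tags, and 14.8% to 18.7% of them had no gene or cluster in the authors' table. One count was worth 0.224 to 0.256 CPM, counts scaled to library size after TMM normalization, except in forelimb replicate 2, the shallowest library, where it was worth 0.621 CPM. The limb identity factors were called in the directions the labels give, Pitx1 and Tbx4 in favour of hindlimb and Tbx5 in favour of forelimb. Replicates differed by more than sampling noise (chi-square over its degrees of freedom 9.04 for forelimb and 21.9 for hindlimb). The mean GC content of all assigned tags was 40.6% and 40.2% in the forelimb libraries but 46.3% and 50.4% in the hindlimb libraries. This difference in base composition and the limb type cannot be told apart by design. The main results are therefore also given with a tag-sequence offset, a correction per library and tag learned only from differences between tags of the same gene.

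The tags on which the results turn are printed 5′ to 3′ with the NlaIII site in capitals, because their own base composition is set beside their values below. Hk2 and Aldoa are shown for the genes called different, Ldha for 3 tags that go different ways, and Pgam2 and Eno3 for the muscle isozymes.
Hk2, last site, 3′ UTR in exon 18 of 18, chr6:82725053-82725073, minus strand: CATGtgatgttaactattatt
Aldoa, last site, end of the coding sequence and start of the 3′ UTR in exon 9 of 9, chr7:126795410-126795430, minus strand: CATGcctactaaccagagctg
Aldoa, site 2 from the 3′ end, coding sequence in exon 8, chr7:126795708-126795728, minus strand: CATGggccttgactttctcct
Ldha, last site, 3′ UTR in exon 8 of 8, chr7:46855601-46855621, plus strand: CATGccaaataaaaccttgaa
Ldha, site 2 from the 3′ end, 3′ UTR in exon 8, chr7:46855471-46855491, plus strand: CATGatgcatatcttgtgcat
Ldha, site 3 from the 3′ end, 3′ UTR in exon 8, chr7:46855412-46855432, plus strand: CATGcctaggccgacgagttc
Pgam2, last site, coding sequence in exon 3 of 3, chr11:5801689-5801709, minus strand: CATGgaagctgttgctgccca
Pgam2, site 2 from the 3′ end, coding sequence in exon 3, chr11:5801728-5801748, minus strand: CATGaggttcctgggagacga
Eno3, last site, coding sequence in exon 9 of 12, chr11:70661431-70661451, plus strand: CATGgacctcattcctctctg
Eno3, site 2 from the 3′ end, coding sequence in exon 8, chr11:70661058-70661078, plus strand: CATGgatgtagctgcgtctga
Positions are GRCm38, from a match of the tags to GENCODE M21 transcripts, not from mm9, the build named for the authors' mapping. Site numbers here and below count within 1 principal transcript per gene. The tags at site 3 of Ldha and Eno3, site 6 of Tpi1 and sites 5 and 7 of Eno1 are also last-site tags of another annotated transcript.

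Aldoa was higher in hindlimb and Hk2 was higher in forelimb, and these were the only members that passed the test, 2 of 10. Aldoa is the aldolase of most cells and of muscle, and its level was 2.46-fold higher in hindlimb. Hk2 was 3.77-fold higher in forelimb. The calls came from edgeR's quasi-likelihood test with Benjamini-Hochberg adjustment over 13718 genes at 0.05, which called 16.7% of all genes, 9.58% for hindlimb and 7.08% for forelimb, so 2 of 10 is near that background. DESeq2 called 4 of 10, with Pkm and Ldha added in hindlimb (3 higher in hindlimb, 1 in forelimb), where it called 19.5% of all genes, 10.7% and 8.86% in the same order. Over tags that match 1 gene only, edgeR called 3 of the 9 members left (Eno1 has no such tag tested), with Ldha added, against 17.7% of genes, 10.6% for hindlimb and 7.12% for forelimb. With the tag-sequence offset none of the 10 passed, and 0.182% of all genes did, 0.0802% for hindlimb and 0.102% for forelimb; 2 of the 10 had an unadjusted p under 0.05. Aldoa then reversed to a log2 fold change of −0.28 and Hk2 came to −0.28. In 8 of 10 members the limb types did not overlap, as in 62.8% of all genes tested. In whole limbs, fewer cells that make a transcript and less of it per cell cannot be told apart.

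The median log2 fold change of hindlimb over forelimb was 0.64 over the 10 members and −0.029 over all genes tested. For the 7 general enzymes it was 0.67, and for the 3 muscle enzymes it was −0.30. Among general enzymes Aldoa passed and 6 did not, and among muscle enzymes Hk2 passed and 2 did not. With the offset the median was −0.053 over the 10 members, −0.046 over the general enzymes and −0.28 over the muscle enzymes, against −0.014 over all genes tested. Summed over the general enzymes, the level was 3476 and 3451 CPM in the forelimb libraries and 4453 and 4923 CPM in the hindlimb libraries, with no overlap. The 3 muscle enzymes summed to 147 and 150 CPM in forelimb and to 120 and 147 CPM in hindlimb. Both sums are without the offset. The general sum holds only the tags given to Eno1, a part of those that match it, as described below.

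**Figure D1:**
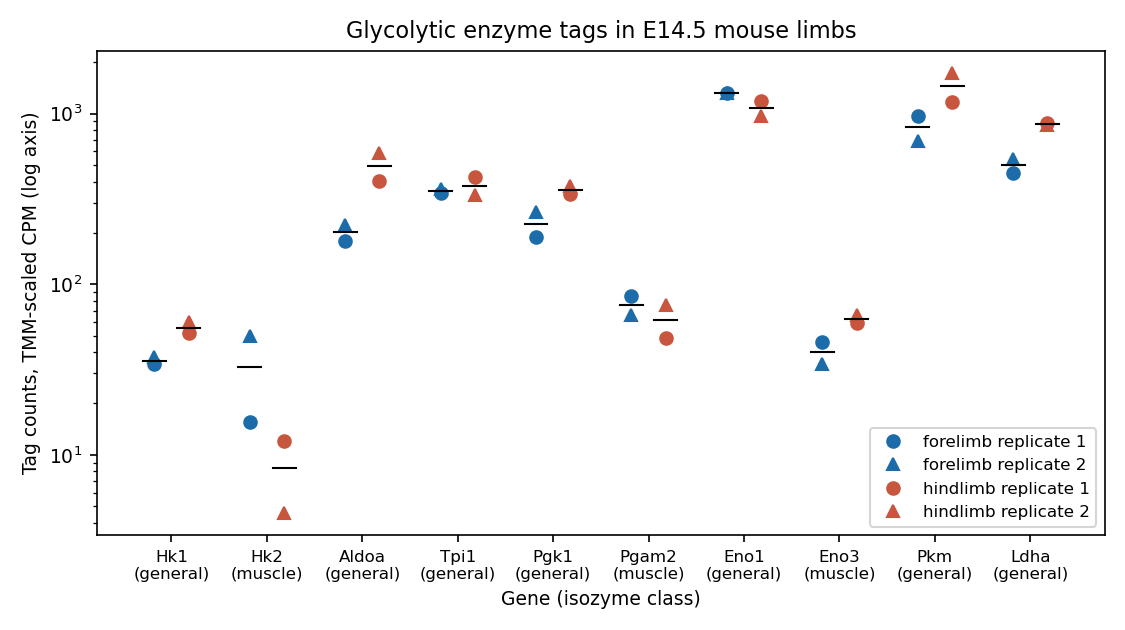
Level of each glycolytic enzyme in the 4 libraries, as TMM-scaled CPM on a log axis; circles are replicate 1, triangles replicate 2, blue forelimb, red hindlimb, and the bar is the mean of 2. Aldoa lies at 180 and 222 CPM in forelimb and 401 and 586 CPM in hindlimb, while the Hk2 replicates spread widely and the Tpi1 and Pgam2 limb types overlap.

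**Figure D2:**
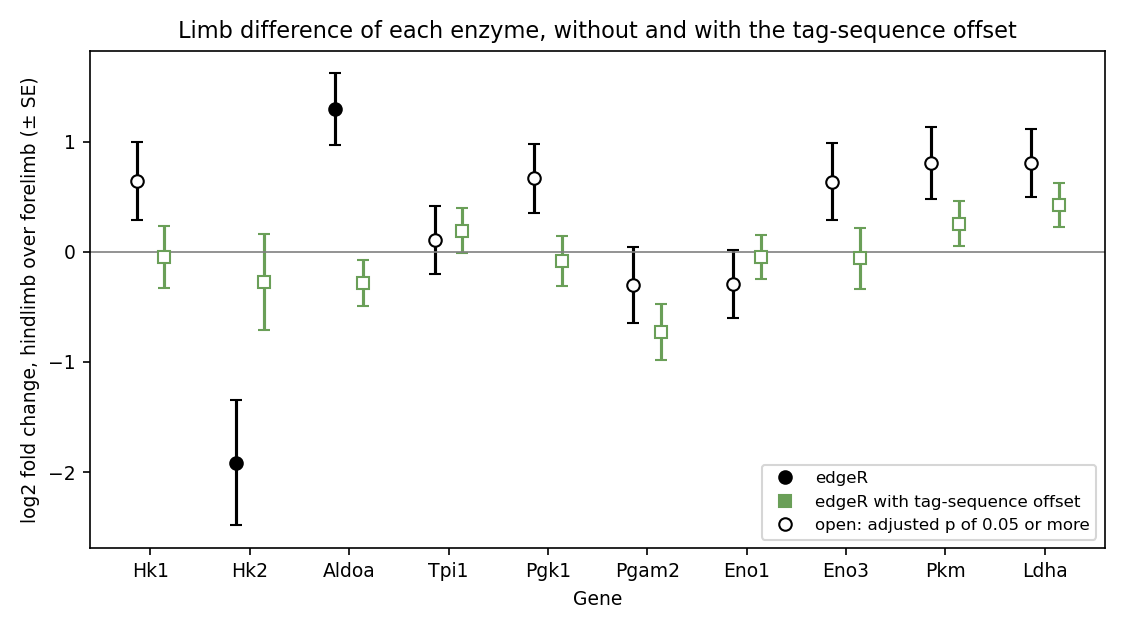
Log2 fold change of hindlimb over forelimb for each enzyme, with its SE as the error bar; circles are edgeR, squares are edgeR with the tag-sequence offset, and filled symbols passed at an adjusted p of 0.05. Aldoa moves from 1.30 to −0.28 and Hk2 from −1.92 to −0.28 with the offset, and no square is filled.

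Hexokinase carries out the entry step of the pathway. Hk1, the general form (ENSMUSG00000037012, chromosome 10, 62268855 to 62379908, minus strand), had 34.1 and 37.3 CPM in forelimb replicates 1 and 2 and 51.4 and 59.8 CPM in hindlimb replicates 1 and 2. Both hindlimb libraries lay above both forelimb libraries. The difference did not pass, at a log2 fold change of 0.64 ± 0.35 (SE, edgeR adjusted p = 0.218), and it came to −0.046 with the offset. Of the Hk1 counts, 15.2% came from a tag that does not match Hk1 in the reference and matches 18 other genes, Rpl17 of the ribosome and its pseudogenes among them. The most abundant Hk1 tag, at the last site of the 3′ UTR, gave a log2 fold change of 1.70 ± 0.52, the tag at site 2 gave 0.48 ± 0.54 and the tag at site 3, with 7.13% of the counts, gave −0.28 ± 0.85. None of these passed tag by tag, nor did the tag that matches Rpl17, at −0.25 ± 0.66.

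Hk2 (ENSMUSG00000000628, chromosome 6, 82725025 to 82774454, minus strand) had 15.6 and 49.7 CPM in forelimb and 12.1 and 4.56 CPM in hindlimb. Forelimb replicate 2 stood far above forelimb replicate 1, which was close to hindlimb replicate 1. These levels rest on 61, 80, 54 and 18 counts in that order. The difference, −1.92 ± 0.57 on the log2 scale, passed (SE, edgeR adjusted p = 0.0284). With the offset it was −0.28 ± 0.44 (adjusted p = 0.894). Without forelimb replicate 2 it was −0.90 (adjusted p = 0.409) and without hindlimb replicate 2 it was −1.36 (adjusted p = 0.0913), so the call was lost without either library. A single tag held 79.8% of the Hk2 counts, the last-site tag printed above, and only 3 of its 17 bases are G or C. It stood at −2.39 ± 0.71 on the log2 scale (edgeR tag by tag, adjusted p = 0.0686). The tag at site 2, with 7.04%, had 4, 2, 6 and 3 counts and was not tested.

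Aldoa (ENSMUSG00000030695, chromosome 7, 126795234 to 126800751, minus strand) had 180 and 222 CPM in forelimb and 401 and 586 CPM in hindlimb. Its mean was 201.2 ± 30.0 CPM in forelimb and 494 ± 131 CPM in hindlimb (SD, n = 2 each), and the lowest hindlimb library lay well above the highest forelimb library. The difference passed at 1.30 ± 0.32 on the log2 scale (SE, edgeR adjusted p = 0.0124). With the offset it was −0.28 ± 0.21 (adjusted p = 0.742). The call was lost without forelimb replicate 1, at 1.15 (adjusted p = 0.148), and without forelimb replicate 2, at 1.45 (adjusted p = 0.0702). Tags that also match another gene held 24.9% of the Aldoa counts; without them the value was 1.77.

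The 2 Aldoa tags printed above have the same number of G or C bases, 9 of 17, and went different ways. The last-site tag, with 73.9% of the counts, had 110 and 124 CPM in forelimb and 323 and 490 CPM in hindlimb. Tested tag by tag with edgeR, this tag was higher in hindlimb by 1.80 ± 0.41 on the log2 scale (adjusted p = 0.0388). The tag at site 2 had 52.6 and 56.3 CPM in forelimb and 30.9 and 41.8 CPM in hindlimb, at −0.58 ± 0.43 (adjusted p = 0.398). It also matches 3 other genes, the retrogene Aldoart1 among them. With the offset the tags stood at 0.0079 and −0.96. Another Aldoa tag, at site 5 with 12 G or C bases and 6.43% of the counts, gave 1.63 ± 0.55 and did not pass (adjusted p = 0.0939).

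Triose phosphate isomerase interconverts the triose products of aldolase. Tpi1 (ENSMUSG00000023456, chromosome 6, 124810586 to 124814296, minus strand) had 341 and 363 CPM in forelimb and 425 and 333 CPM in hindlimb. Hindlimb replicate 1 was the highest and hindlimb replicate 2 the lowest, so the limb types overlapped. The log2 fold change was 0.11 ± 0.31 (edgeR adjusted p = 0.843) and 0.19 with the offset. Its main tags, in the 3′ UTR at site 2 and at the last site, held 41.2% and 40.0% of the counts and had log2 fold changes of −0.017 and −0.045, although 10 and 6 of their bases are G or C. The coding tag at site 6, with 6.94% of the counts, gave 1.22 ± 0.69 and did not pass.

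Phosphoglycerate kinase makes the ATP of the lower pathway at its upper step. Pgk1 (ENSMUSG00000062070, chromosome X, 106187100 to 106203699, plus strand) had 189 and 263 CPM in forelimb and 340 and 378 CPM in hindlimb, with no overlap. The difference of 0.67 ± 0.31 on the log2 scale did not pass (edgeR adjusted p = 0.148), and it was −0.084 with the offset. A single 3′ UTR tag with 7 G or C bases held 87.0% of the counts, at 0.76 ± 0.40.

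Phosphoglycerate mutase moves the phosphate of 3-phosphoglycerate, and Pgam2 is its muscle form. Pgam2 (ENSMUSG00000020475, chromosome 11, 5801640 to 5803733, minus strand) had 85.8 and 65.9 CPM in forelimb and 48.1 and 75.8 CPM in hindlimb. Hindlimb replicate 2 fell between the forelimb libraries. Its log2 fold change was −0.30 ± 0.35 (edgeR adjusted p = 0.594), and −0.73 ± 0.25 with the offset. The tag at site 2 printed above had 46.9 and 39.5 CPM in forelimb and 19.1 and 26.7 CPM in hindlimb, while the last-site tag had 21.5 and 11 against 18.6 and 35.2 CPM. Both have 10 G or C bases, and their log2 fold changes of −0.92 ± 0.45 and 0.69 ± 0.55 have opposite signs; neither passed. The tags at sites 3 and 4, with 7.64% and 7.75% of the counts, gave 0.32 ± 0.74 and −1.47 ± 0.69 and did not pass either.

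Pgam1, the general mutase and not a member, had 159 and 190 CPM in forelimb and 334 and 310 CPM in hindlimb. Both hindlimb libraries were higher, and at 0.89 ± 0.31 it just missed the threshold (edgeR adjusted p = 0.0545; 0.11 with the offset). Of the Pgam2 counts, 7.64% came from tags that also match other genes, Pgam1 or its pseudogenes among them.

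Enolase makes phosphoenolpyruvate; Eno1 is general and Eno3 is the muscle form. Eno1 (ENSMUSG00000063524, chromosome 4, 150236721 to 150248879, plus strand) had 1317 and 1326 CPM in forelimb and 1187 and 969 CPM in hindlimb. Both hindlimb libraries were lower, by −0.29 ± 0.31 on the log2 scale, which did not pass (edgeR adjusted p = 0.550). Of these counts, 99.95% came from tags that match another gene as well, mostly Eno1b, a near-identical copy whose transcript shares the Eno1 tags.

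The table split the shared Eno1 tags between the copies. The last-site tag of Eno1 was given to Eno1b, with 3097 and 631 counts in forelimb and 5795 and 8094 in hindlimb. In all, tags that match Eno1 but were given to another feature or to none held 19658 counts, more than the 16404 counts given to Eno1 itself. Summed over every tag that matches its transcripts, Eno1 came to 2175 and 1856 CPM in forelimb and 2643 and 3216 CPM in hindlimb. The direction then reversed, to a log2 fold change of 0.54 ± 0.31 (edgeR adjusted p = 0.246), and the limb types again did not overlap. Reads of Eno1 and Eno1b cannot be told apart by these tags.

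Eno3 (ENSMUSG00000060600, chromosome 11, 70657202 to 70662513, plus strand) had 45.8 and 34.2 CPM in forelimb and 59.5 and 66.2 CPM in hindlimb, with no overlap. The difference of 0.64 ± 0.35 on the log2 scale did not pass (edgeR adjusted p = 0.219) and was −0.059 with the offset. No Eno3 tag matches another gene. The 2 Eno3 tags printed above have 9 G or C bases each and again went different ways. The last-site tag had 15.5 and 3.88 CPM in forelimb and 32.3 and 46.0 CPM in hindlimb, and the tag at site 2 had 16.6 and 12.9 against 9.42 and 5.82 CPM. Their log2 fold changes were 1.92 ± 0.62 (adjusted p = 0.0863) and −0.96 ± 0.58 (adjusted p = 0.301). The tag at site 3, with 19.97% of the counts, gave −0.083 ± 0.54.

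Pyruvate kinase makes the last ATP of the pathway, and Pkm encodes both the M2 form of embryonic and dividing cells and the M1 form of muscle and brain by a choice of exon. Pkm (ENSMUSG00000032294, chromosome 9, 59656368 to 59679375, plus strand) had 966 and 695 CPM in forelimb and 1173 and 1736 CPM in hindlimb. The hindlimb libraries were higher, and differed from each other by more than the limb types at their nearest. At 0.81 ± 0.33 the difference did not pass with edgeR (adjusted p = 0.0990), passed with DESeq2 (adjusted p = 0.0489) and passed with edgeR without hindlimb replicate 1, at 1.05 (adjusted p = 0.0141). With the offset the value was 0.26. Of its counts, 36.6% came from tags that also match other genes, processed copies of Pkm among them. The last-site tag, in the 3′ UTR with 63.0% of the counts, gave 0.69 ± 0.43. The coding tags at sites 2, 4 and 5 gave 0.25 ± 0.42, 1.43 ± 0.42 and 1.18 ± 0.44, and none of these passed.

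A Pkm tag at site 4 from the 3′ end starts in exon 8 of Pkm-201 and crosses the exon junction. Its sequence tells the spliced forms apart at this site. It was chosen after its values were seen. The forms are shown with the bases that differ in capitals.
Pkm-201 (M2 exon): catgcagcacctgatTgcCcg
Pkm-202 (M1 exon): catgcagcacctgatAgcTcg
From Pkm-201 to Pkm-202 the tag differs by T12A and C15T, counted from 1 at the base after CATG. The M2 tag had 151 and 87 counts in forelimb and 502 and 543 in hindlimb. The M1 tag had 2 and 0 counts in forelimb and 5 and 10 in hindlimb. Of both together, the M1 tag was 1.31% in forelimb replicate 1 (Wilson 95% interval 0.359% to 4.64%), 0.986% in hindlimb replicate 1 (0.422% to 2.29%) and 1.81% in hindlimb replicate 2 (0.985% to 3.30%). In forelimb replicate 2 it was 0 of 87 counts; the Wilson upper limit is 4.23%, and 3 counts, the limit set for a count of 0, would be a share of 3.45%. Nearly all junction tags at this site were thus the M2 form in every library. A difference in this share between limb types was not detectable at this depth. The share is of tags at 1 site and not of Pkm transcripts, since each form can also give tags at other sites. The Wilson intervals cover counting error only, since PCR tags without molecular identifiers are not independent molecules. The M2 tag also matches 3 processed copies, the M1 tag matches Pkm alone, and the tags differ by 1 G or C base. In all, 5 tags occur in Pkm-202 and not in Pkm-201, the M1 junction tag among them. Together they held 20 and 10 counts in forelimb and 51 and 65 in hindlimb. In every library this is more than the M1 junction tag alone, so the junction share does not give the M1 share of Pkm. Whether the others match further genes is not given here.

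Lactate dehydrogenase A favours the making of lactate from pyruvate. Ldha (ENSMUSG00000063229, chromosome 7, 46841475 to 46855627, plus strand) had 449 and 544 CPM in forelimb and 876 and 862 CPM in hindlimb. The hindlimb libraries were close together and well above the forelimb libraries. Its log2 fold change of 0.81 ± 0.31 did not pass with edgeR (adjusted p = 0.0775) and passed with DESeq2 (adjusted p = 0.0207) and over tags that match Ldha alone, at 0.91 (edgeR adjusted p = 0.0459). With the offset it was 0.42.

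The 3 Ldha tags printed above lie within 1 exon and did not move together. The last-site tag, with 5 G or C bases and 81.4% of the counts, had 365 and 357 CPM in forelimb and 770 and 776 CPM in hindlimb. The tag at site 2, with 6 G or C bases, had 81.0 and 136 CPM in forelimb and 38.4 and 17.2 CPM in hindlimb. The tag at site 3, with 11 G or C bases, had 5.45 and 10.4 CPM in forelimb and 72.8 and 81.2 CPM in hindlimb. It is also the last-site tag of another annotated Ldha transcript. None of the 3 overlapped between limb types, and the middle one was higher in forelimb while its neighbours were higher in hindlimb. The share of all tags without overlap is not given here. Tag by tag, edgeR gave log2 fold changes of 1.10 ± 0.37 (adjusted p = 0.0927), −1.95 ± 0.52 (adjusted p = 0.0546) and 3.34 ± 0.52 (adjusted p = 0.0194) from the last site upstream. With the offset they were 0.67, −0.30 and 0.19.

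Ldhb, the dehydrogenase subunit of heart and other oxidative tissues, was higher in forelimb. It had 382 and 429 CPM in forelimb and 186 and 132 CPM in hindlimb, at a log2 fold change of −1.35 ± 0.32 (edgeR adjusted p = 0.00890). With the offset it was 0.11 and did not pass, and without forelimb replicate 2 the call was lost, at −1.27 (adjusted p = 0.0831).

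The muscle share of a step was followed as the log2 ratio of the muscle to the general gene within each library, for 3 pairs. Eno3 over Eno1 was −4.84 and −5.28 in forelimb and −4.32 and −3.87 in hindlimb. Hk2 over Hk1 was −1.12 and 0.42 in forelimb and −2.09 and −3.71 in hindlimb. Pgam2 over Pgam1 was −0.89 and −1.52 in forelimb and −2.79 and −2.03 in hindlimb. So the enolase ratio was higher in both hindlimb libraries, while the hexokinase and mutase ratios were higher in both forelimb libraries. The differences were 0.97, −2.55 and −1.21, with a pooled SD over the replicates of 0.31, 1.12 and 0.50. An exact two-sided permutation test over the 4 libraries gave p = 0.333 for each, the smallest p that this design allows. With the tag-sequence offset the enolase difference was −0.0023, the hexokinase difference −0.15 and the mutase difference −0.81. Summed by reference match, the enolase difference was 0.12, less than the pooled SD of 0.31 above, and the limb types overlapped.

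**Figure D3:**
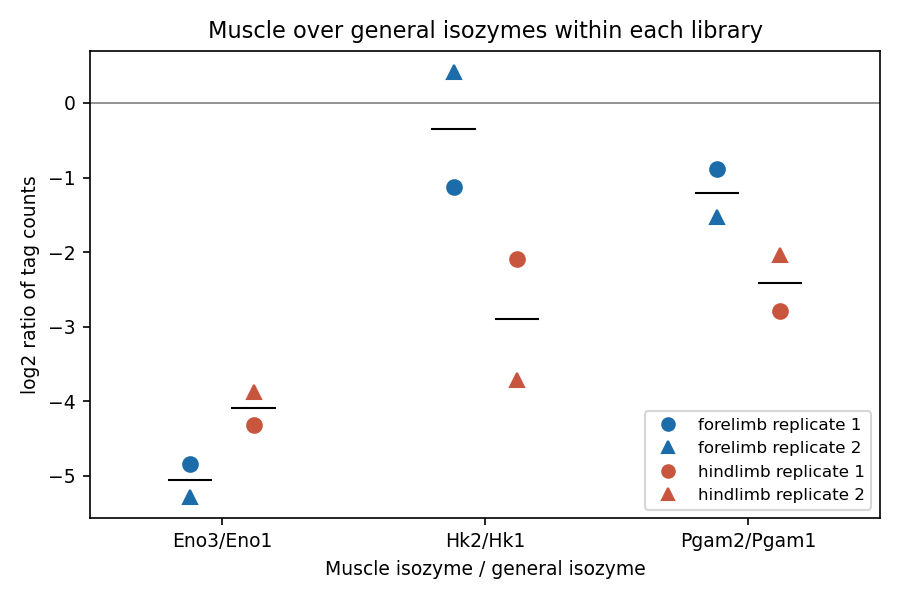
Log2 ratio of muscle to general isozyme counts in each library, with circles for replicate 1, triangles for replicate 2, blue for forelimb, red for hindlimb and a bar for the mean of 2. Eno3/Eno1 is higher in hindlimb and Hk2/Hk1 and Pgam2/Pgam1 are higher in forelimb without overlap in the counts plotted. With the tag-sequence offset the enolase difference reverses to −0.0023. Summed by reference match it is 0.12 and the limb types overlap.

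Skeletal muscle markers were set beside the muscle enzymes. Of 19 listed, 18 had counts and were tested, 7 were higher in forelimb and none was higher in hindlimb, with a median log2 fold change of −0.78. Of all genes tested, 7.08% were called for forelimb and 9.58% for hindlimb. The 18 genes summed to 8005 and 6854 CPM in forelimb and to 3080 and 3019 CPM in hindlimb. The called genes with the smallest p were Myh8, the perinatal myosin heavy chain, at −1.84, Tnnc2, the fast troponin C, at −1.78, and Neb, the thin filament protein nebulin, at −1.74. Tnnc1 had no count in the table and none of the other 18 was at 0 in any library. With the offset the median was −0.66 and 3 passed, Acta1, Mylpf and Myl1 (edgeR adjusted p = 0.0446, 0.0187 and 0.0202). Of these, Mylpf and Myl1 were not called without the offset (edgeR adjusted p = 0.288 and 0.329). Myh8, Tnnc2 and Neb did not pass with it (edgeR adjusted p = 0.115, 0.167 and 0.661). Hk2 and Pgam2 had negative log2 fold changes and Eno3 a positive one beside this list, and the part of muscle content in these results was not tested.

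The tags of a single enzyme were also compared with each other. Of 9 members with enough tags for edgeR's test of tag usage, which asks whether the ratio of a gene's tags differs between limb types, 3 passed: Eno1 (adjusted p = 0.00635), Ldha (adjusted p = 0.00910) and Aldoa (adjusted p = 0.0443). Across all genes with several tags 10.4% passed. With the offset none of the 9 passed, nor had any an unadjusted p under 0.05, and 0.207% of all genes passed. The calls were lost without forelimb replicate 1, without forelimb replicate 2 or without hindlimb replicate 2, and fewer members passed without hindlimb replicate 1. The share of all genes that passed in these fits is not given here.

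Of 31 tested tags that held at least 5% of their gene's counts, 18 had a positive and 13 a negative log2 fold change. Among the 8 members with several such tags, 7 had tags of both signs. The share of all genes with tags of both signs is not given here, so this count has no background beside it. Of the 31, 4 passed tag by tag with edgeR, each higher in hindlimb. Without the cut at 5% the same 4 passed, of 59 tested member tags. That is near the background, as 6.22% of all tested tags passed, 4.58% higher in hindlimb and 1.64% the other way. Among the 4 were the Aldoa last-site tag and the Ldha site 3 tag. The others were a Pkm tag at site 3 with 11 G or C bases (1.81 ± 0.44, adjusted p = 0.0447) and an Eno1 tag at site 3 with 9 (1.92 ± 0.39, adjusted p = 0.0301). The most abundant Eno1 tag, at site 2 with 6 G or C bases, had 1164 and 1102 CPM in forelimb and 571 and 394 CPM in hindlimb, while the site 3 tag had 133 and 113 against 478 and 450 CPM. The Eno1 tags at sites 5 and 7 gave 1.23 ± 0.44 and −0.15 ± 0.42, and like the site 2 tag, at −1.23 ± 0.39, they did not pass. The summed Eno1 value thus holds tags that were high in different limb types.

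Across all 37805 tested tags, Pearson's r between GC content and log2 fold change was 0.57, and over the 59 tested tags of these enzymes it was 0.43; tags share libraries and are not independent. By number of G or C bases, the median log2 fold change over all tags was −1.03 for 0 to 5 bases, −0.60 for 6 to 7, 0.085 for 8 to 9, 1.16 for 10 to 11 and 2.36 for 12 to 17. The Hk2 tag, with 3 such bases, and the Ldha site 3 tag, with 11, had the same sign as the median of their class. The Ldha last-site tag, with 5, and the Pgam2 tag at site 2, with 10, had the opposite sign. With the offset the class medians lay between −0.066 and 0.035, and no member tag passed with edgeR (6 of 59 at an unadjusted p under 0.05), against 0.00794% of all tags. The offset models GC number on tags of these same libraries, so flat class medians follow largely from the fit.

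**Figure D4:**
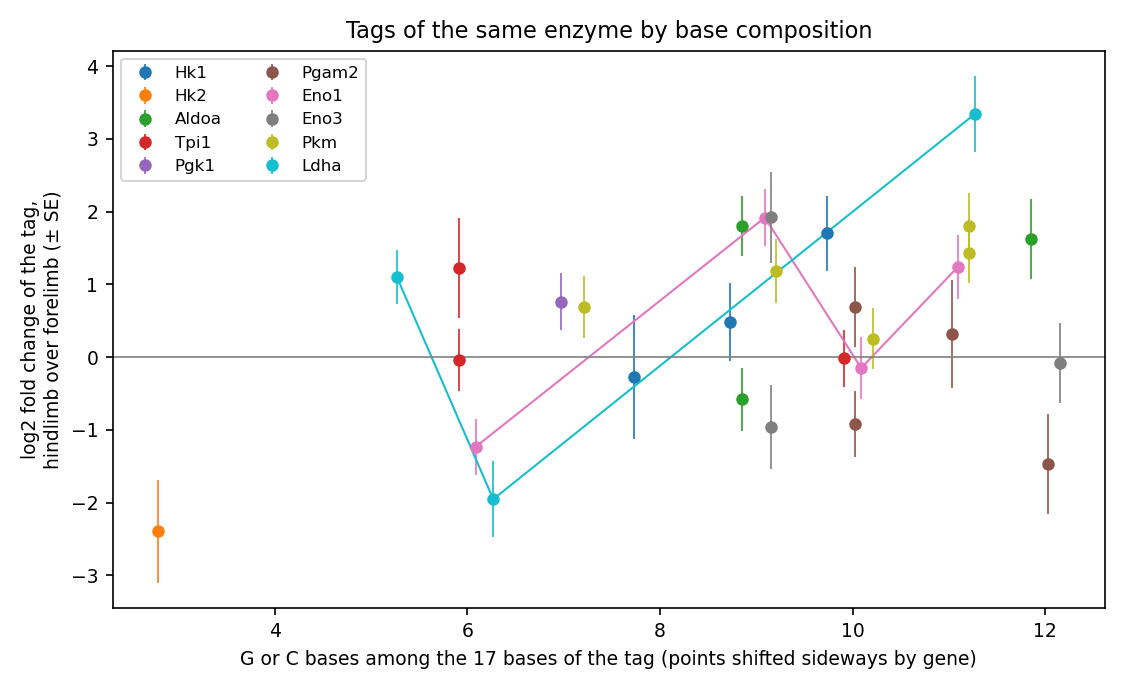
Log2 fold change of hindlimb over forelimb, with its SE as the error bar, for tested tags with at least 5% of their gene's counts, against the number of G or C bases among the 17 bases. The tag given to Hk1 that does not match Hk1 in the reference is left out. Colours are genes, and lines join the tags of Ldha and of Eno1. Ldha goes from 1.10 through −1.95 to 3.34, and the Hk2 tag lies at −2.39 with 3 G or C bases.

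The other enzymes of glycolysis went both ways. Of 18 listed, 10 were tested, 1 passed in each direction, and the median log2 fold change was 0.32. The background for this list and the pathway lists below is 9.58% of all genes called for hindlimb and 7.08% for forelimb. Pfkm, the muscle subunit of phosphofructokinase, the main control step, had 34.3 and 34.8 CPM in forelimb and 75.8 and 98.9 CPM in hindlimb. It was higher in hindlimb at 1.34 ± 0.35 (edgeR adjusted p = 0.0149), and reversed to −0.29 with the offset; Ldhb was the gene higher in forelimb. Leaving out forelimb replicate 1 ended the Pfkm call (edgeR adjusted p = 0.128), as did leaving out forelimb replicate 2 (adjusted p = 0.117) or hindlimb replicate 2 (1.15, adjusted p = 0.0539). Pfkl, the liver subunit, stood at 0.79 and Pfkp, the platelet subunit, at −0.98; neither passed. Gpi1, which makes fructose 6-phosphate, stood at 0.25, Eno2, the neuronal enolase, at −0.012, and neither passed; Aldoc had too few counts for the test.

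Gapdh, the enzyme that makes NADH just below aldolase, shares its tags with many pseudogenes. In the table it had 49.9 and 65.2 CPM in forelimb and 96.8 and 52.7 CPM in hindlimb. Over every tag that matches its transcripts it had 3169 and 2324 CPM in forelimb and 6373 and 8797 CPM in hindlimb, and the largest share of those counts was given to the pseudogene Gm13394. The value of Gapdh in the table, a log2 fold change of 0.39 (edgeR adjusted p = 0.499), therefore covers a small part of its tags. Among the members, such a loss was large for Eno1 alone; for the other 9 the counts of matching tags given elsewhere ran from 0 to 1350, the latter for Pkm beside 16984 of its own.

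Genes of glucose entry, glycogen and lactate export were 16 tested, of which 2 were higher in hindlimb and none in forelimb, with a median of −0.058. Slc16a3, the lactate exporter of glycolytic cells, had 12.5 and 9.32 CPM in forelimb and 34.2 and 53.8 CPM in hindlimb, at 1.97 ± 0.42 (edgeR adjusted p = 0.00524; 0.54 with the offset, not called). Phkg1, a subunit of phosphorylase kinase, was called at 1.38, but all of its counts came from tags that match many other genes, and the call was lost without forelimb replicate 1, at 1.10 (edgeR adjusted p = 0.124), and with the offset, at −0.066.

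Of the regulators of glycolysis, 14 were tested and 1 was higher in hindlimb, with a median of −0.14. This was Pfkfb4, which sets the level of the activator fructose 2,6-bisphosphate, at 1.87 (edgeR adjusted p = 0.0478). Its levels were 6.15 and 3.73 CPM in forelimb and 8.27 and 29.7 CPM in hindlimb, so that hindlimb replicate 2 stood apart. Without that library the value was 0.71 (edgeR adjusted p = 0.722). The call was also lost without forelimb replicate 1 (2.33, adjusted p = 0.0756), without forelimb replicate 2 (1.60, adjusted p = 0.137), with DESeq2 (adjusted p = 0.0711), with the replicate block (1.57, adjusted p = 0.0708) and with the offset, at 0.17.

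Side paths and pyruvate use had 15 tested genes, 3 higher in hindlimb and none in forelimb, with a median of 0.42. Pgls, of the pentose phosphate pathway, had 28.9 and 19.3 CPM in forelimb and 114 and 168 CPM in hindlimb, at 2.52 (edgeR adjusted p = 0.000602). Tkt, the transketolase that links that pathway to glycolysis, stood at 1.88 (adjusted p = 0.00261), and Pdhb, of pyruvate dehydrogenase, at 1.35 (adjusted p = 0.0290) on tags that all match other genes. Leaving out forelimb replicate 2 ended the Pdhb call, at 0.95 (edgeR adjusted p = 0.276). Leaving out hindlimb replicate 2 did so too, at 0.88 (adjusted p = 0.185), while without forelimb replicate 1 it was 1.98 (adjusted p = 0.0351). With the offset Pgls reversed to −0.24 and Pdhb to −0.35, Tkt was 0.85, and no gene of the 4 pathway lists passed.

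Markers of the other tissues of the limb went both ways. Of all genes tested, 9.58% were called for hindlimb and 7.08% for forelimb. Of 12 cartilage markers tested, 4 favoured hindlimb and 1 forelimb, and their sums were 6854 and 5737 CPM in forelimb and 6513 and 8135 CPM in hindlimb. Of red cell markers 1 and 1 of 8 passed, of endothelial markers 2 and 1 of 8, and of epidermal markers 3 and 2 of 8, in the same order. With the offset none of these passed, and their part in the enzymes' values was not tested.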

How the data were processed

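Tag counts from 4 libraries, 2 of forelimb and 2 of hindlimb, were used. The authors deposited 1 table of raw whole-number counts of 733961 tags of 17 bases, and a UniGene cluster or Ensembl identifier where one was assigned. Bowtie and mm9 are named in the submitters' processing notes; their version and parameters are not given in the sources at hand. Counts were summed per Ensembl gene, or per cluster where no gene was given. Tags without either (14.8% to 18.7% of counts) stayed out of library sizes and tests. Genes were placed, and tags matched to transcripts, with GENCODE M21 (GRCm38).

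The limb types were compared in R 4.3.3 with edgeR 4.0.16 (TMM, filterByExpr, glmQLFit and glmQLFTest, Benjamini-Hochberg at 0.05), without a block and with 2 residual degrees of freedom. DESeq2 1.42.0 was an alternative. Tag usage was tested with diffSpliceDGE (Simes). The tag-sequence offset models base and position, GC and purine number and the opening dinucleotide, per library, over 42831 tags with at least 20 counts, centred within genes. The fits were tested on simulated data. Where the table gives a gene its tags, no strand is set aside, and opposite-strand tags were at most 6.1% of a member's counts (Hk2).

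All members are named, with each tag of at least 5% of their counts. Of the other lists, the fixed isozyme partners and at most the 3 called genes with the smallest p are named. The muscle markers that passed with the offset are named as well. Members, lists and alternatives were chosen with earlier results of these data known; the Pkm junction tags and the crossed pairing were chosen after their values were seen.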

Additional observations from a re-analysis of the deposited data

Results flagged for a closer look

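Tags with no gene or cluster in the authors' table, which enter no comparison above, also matched transcripts of 5 members. Over the 4 libraries they held 890 counts for Pkm, 243 for Eno1, 237 for Aldoa, 61 for Hk1 and 8 for Hk2. Each was listed because it is signal outside the tags used. The M1 junction tag of Pkm is among them. Counted in, with every other tag that matches the transcripts, the log2 fold change was 1.35 for Aldoa, and the calls of Aldoa and Hk2 and the absence of other called members did not change.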

How the results depend on the processing

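Over 139 repeats of the members' log2 fold changes under the alternatives, 113 kept direction and side of the threshold. With direction kept, 5 lost and 11 gained a call, and 10 reversed. Aldoa with the offset is counted as reversed and also lost its call. The reversals were, with the offset, Aldoa at −0.28, Hk1 at −0.046, Pgk1 at −0.084 and Eno3 at −0.059. The last-site setting used tags at the last site of any annotated transcript of their gene. Over these tags the reversals were Tpi1 at −0.0098, Pgam2 at 0.58 and Eno1 at 0.27. For Eno1 the setting kept the tags at sites 5 and 7, as the last-site tag described above was given to Eno1b. For Tpi1 it also kept the tag at site 6. The others were Eno1 by reference match at 0.54, and Tpi1 at −0.098 over the most abundant tag and, without a library, from −0.092 (without hindlimb replicate 1) to 0.29. The 2 members called, beside 2285 of 13718 genes, became 4 with DESeq2, beside 2265 of 11590 genes. They became 5 over the most abundant tag, beside 2933 of 12483 genes, and 4 over the last site, beside 2224 of 9562 genes. With the offset 0 members and 25 genes were called. Leaving out a library gave 0 to 3 members and 950 to 3900 genes, with 3900 genes without hindlimb replicate 1; the lone library of a limb type is then assumed to vary like the pair of the other. Tag usage differed in 1 member over tags that match 1 gene and in 0 with the offset. Each fit without a library gave fewer members than the main fit. Apart from the offset, the share of all genes in these settings is not given here. For isozyme ratios, leaving out a library moved Eno3 over Eno1 to 0.74 to 1.19, Hk2 over Hk1 to −3.36 to −1.74 and Pgam2 over Pgam1 to −1.59 to −0.83. Over the most abundant tag these ratios differed by 3.57, −4.00 and −3.55. Hk2 over Hk1 was −3.92 over the last site and −0.15 with the offset; Eno3 over Eno1 was 0.12 by reference match and −0.0023 with the offset. The unique-tag ratio of Eno3 to Eno1 was not run because Eno1 has no unique tag tested. Apart from the offset, the tag choice and the libraries left out, the causes of these changes were not tested.

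With the replicate number as a block, 2 members and 2151 genes were called. Tag usage then differed in 0 members in place of 3 (3 at an unadjusted p under 0.05), and the share of all genes is not given here. Whether a number marks shared embryos is not known from the labels; the replicates' deviations correlated at −0.118 between limb types, so the numbers were not treated as pairs. The crossed pairing, added after seeing this, called 4 members and 3170 of the 13718 genes tested.

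Depth limits Hk2 most, with 18 counts in hindlimb replicate 2. With 2 libraries per limb type, single libraries decide calls.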
